A study of Mus musculus with 4 samples.

Results

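The cholecystokinin, galanin and neurotensin systems are represented here by 8 genes: the peptide precursors Cck, Gal, Nts and Nmb, and the receptors Cckbr, Galr1, Ntsr1 and Ntsr2. They were found by matching the RefSeq accession of each array probe to a gene symbol, which gave 10 of 41174 probes. Cckbr and Ntsr2 had 2 probes each and the other genes 1 each. All 8 passed the filter on dim probes that left 21424 genes, and all 8 were well above background on all 4 arrays, as were 91.9% of the genes tested. They were measured in total RNA of tissue labelled as thalamus and hypothalamus, taken from mice 14 days after birth, with 1 one-colour (Cy3) array per sample. The dark-reared group had 2 samples, from litters whose dams were put into a fully covered black cage 1 to 4 days before delivery and cared for under dim red light until sampling. The control group had 2 samples, from mice in standard cages on a cycle of 12 h of light and 12 h of dark. The labels call the samples of a group biological replicates and give no strain, sex or number of animals behind a sample. The comparison asks whether rearing without visual input alters gene expression in this tissue.

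Cholecystokinin, galanin, neurotensin and neuromedin B are short peptides cut from larger precursors and released from dense-core vesicles. They act on G protein-coupled receptors over wider distances and longer times than fast transmitters. Cholecystokinin is among the most abundant peptides of forebrain neurons, and Cckbr encodes its main receptor in the brain. Galanin is made in several hypothalamic cell groups that serve feeding, sleep and reproduction, and its receptor Galr1 couples to inhibitory G proteins. Neurotensin takes part in thermoregulation, feeding and the control of dopamine neurons. Its receptor Ntsr1 binds it with high affinity, whereas Ntsr2 binds it with lower affinity and has been found in astrocytes as well as in neurons. Neuromedin B is a bombesin-like peptide with a receptor of its own, Nmbr.

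The promoters of the cholecystokinin, galanin and neurotensin genes are shown because these precursors had the widest ranges between arrays among the 4 peptide genes described below. Each sequence is the 250 bases before the annotated start of the gene, 5′ to 3′ on the gene's own strand, from RefSeq sequences of mouse build GRCm38.p6. Cck is at chr9:121495695-121495944, Gal at chr19:3414545-3414794 and Nts at chr10:102490419-102490668, all on the minus strand. Capitals mark matches on either strand to 5 motifs, which are the cAMP response element TGACGTCA, its core TGACG (also found inside the full element), the AP-1 site TGANTCA, the TATA box TATAAA and the E-box CACGTG.
Cck: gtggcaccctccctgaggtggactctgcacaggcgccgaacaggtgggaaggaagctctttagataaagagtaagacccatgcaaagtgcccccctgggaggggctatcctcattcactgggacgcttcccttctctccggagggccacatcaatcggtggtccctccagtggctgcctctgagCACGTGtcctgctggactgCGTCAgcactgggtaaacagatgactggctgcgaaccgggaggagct
Gal: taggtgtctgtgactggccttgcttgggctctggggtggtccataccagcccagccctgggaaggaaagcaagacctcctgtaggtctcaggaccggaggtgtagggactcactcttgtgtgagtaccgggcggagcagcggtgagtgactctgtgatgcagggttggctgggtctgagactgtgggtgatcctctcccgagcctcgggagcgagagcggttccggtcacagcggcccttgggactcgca
Nts: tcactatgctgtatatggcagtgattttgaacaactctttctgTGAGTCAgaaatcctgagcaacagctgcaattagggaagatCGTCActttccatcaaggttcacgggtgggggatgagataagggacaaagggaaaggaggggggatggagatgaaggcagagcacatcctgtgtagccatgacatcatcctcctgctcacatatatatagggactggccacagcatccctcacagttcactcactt
The Cck window held 1 cAMP response element core, 47 to 43 bases before the start, and 1 E-box, 66 to 61 bases before it. The Nts window held 1 core, 166 to 162 bases before the start, and 1 AP-1 site, 207 to 201 bases before it. None of the 5 motifs was in the Gal window. Of 32851 mouse promoter windows of the same length, 17.8% held the core, 1.55% the full element, 6.75% the AP-1 site, 12.4% the TATA box and 6.02% the E-box. Of the 7 members with a promoter in the table, Ntsr1 also held the core, and Cckbr and Ntsr2 held an E-box. These are matches of letters and were not tested as sites. Galr1 had no promoter shown.

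The arrays were of similar brightness and all 4 gave broad signal. The share of probes well above background was 70.6% and 70.9% in the dark-reared pair and 73.3% and 65.9% in the control pair, and no spot of a probe was saturated. Each of 13 thalamus markers was well above background on every array, whereas of 15 hypothalamus markers 7 passed the filter. Among the other hypothalamus markers, signal well above background was found on 2 arrays for each of Hmx2, Hmx3, Nr5a1 and Fezf1. It was found on 1 array for Agrp and on none for the transcription factor genes Sim1 and Otp. Rax, also counted in the 15, had no named probe. Xist, expressed from the inactive X chromosome, was well above background in dark-reared 1 and control 1 and not in dark-reared 2 and control 2. The brighter probe of the Y-linked Ddx3y had log2 signals of -0.33 and 1.05 in the dark-reared pair, -6.56 in control 1 and 1.16 in control 2. It was well above background in all but control 1, so that dark-reared 1 gave signal for both genes. The dimmer Ddx3y probe, at -5.90 and -3.93 against -7.41 and -3.70, was well above background only in dark-reared 2 and control 2. Sex content thus differed between samples of a group, and its part in the results below was not tested. Dark-reared 2 and control 2 lay on 1 slide, and the other samples on a slide each. Nothing in the labels says that equal replicate numbers mark shared litters. The number of arrays limits the precision: an exact two-sided permutation test of 2 samples against 2 cannot give a p below 0.333.

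None of the 8 genes differed between dark-reared and control mice beyond the spread between samples. With limma, 0 of 8 passed a Benjamini-Hochberg adjusted p of 0.05, as did 0 of 21424 genes (0%), and each of the 8 had an adjusted p of 1.00. An unadjusted p under 0.05 was found for 0 of the 8 and for 269 genes in all (1.26%). In none of the 8 did the groups separate, whereas 19.0% of all genes tested had both arrays of 1 group above both of the other (9.53% with the dark-reared arrays above and 9.51% with them below). A difference of at least 2-fold without overlap was found for 0 of the 8 and for 1.19% of all genes (0.425% higher and 0.770% lower in dark-reared samples). Leaving the overlap aside, 0 of the 8 means were 2-fold apart, beside 2.37% of all genes. The means of 4 members (Nts, Nmb, Cckbr and Ntsr1) were higher in dark-reared samples and those of the other 4 were lower, beside 48.3% of all genes higher and 51.7% lower. Over the 8 genes the median log2 difference, dark-reared minus control, was -0.03, beside -0.0060 over all genes tested. What varied was the level between samples of 1 group. In 7 of the 8 genes the log2 range over the 4 arrays exceeded 0.42, the median range of all genes.

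**Figure D1:**
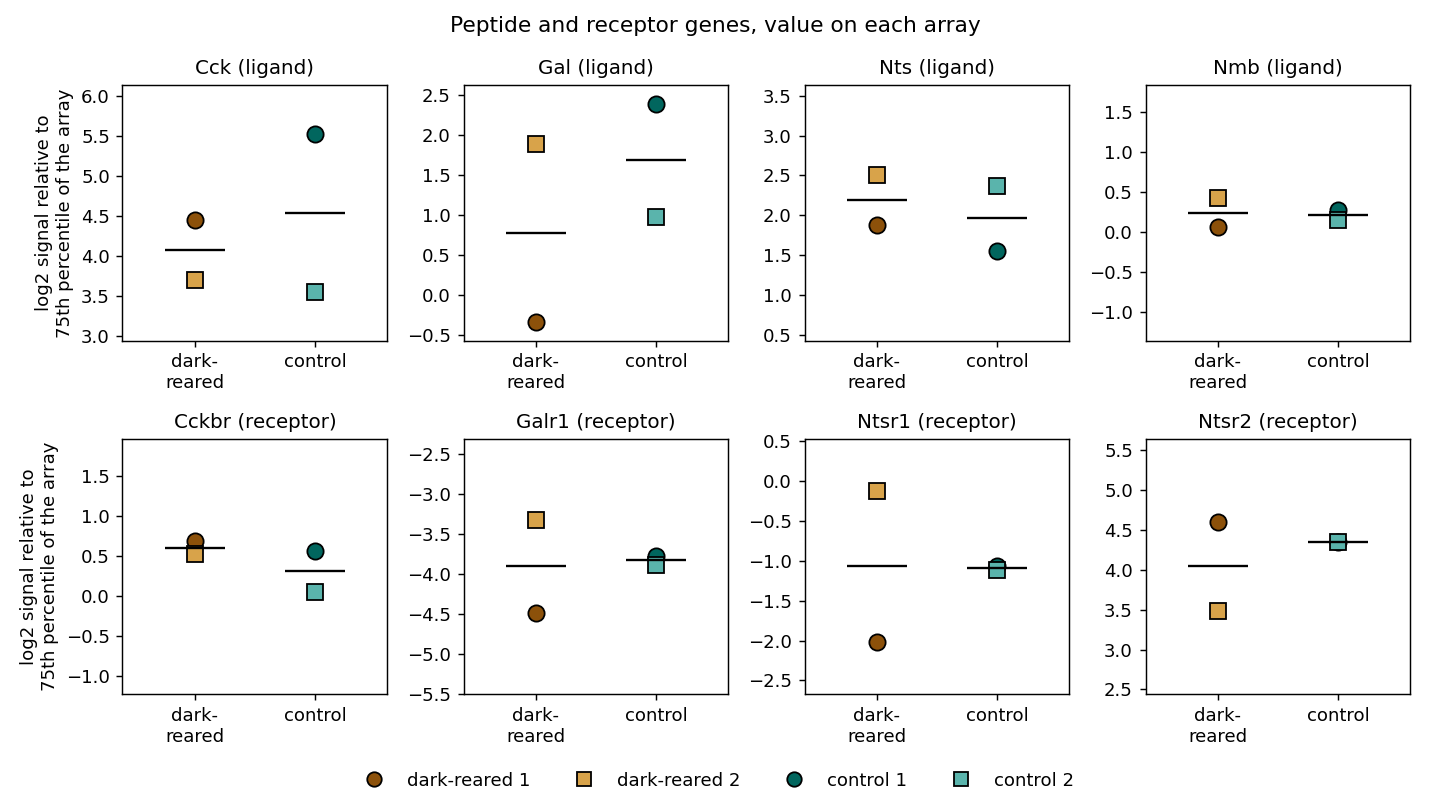
Log2 signal relative to the 75th percentile of the array (vertical axis) for each of the 8 genes, with 1 point per array, dark-reared on the left and control on the right of each panel. Short lines are group means (n = 2), and every panel spans the same number of log2 units. The groups overlap in all 8 panels, and for Galr1, Ntsr1 and Ntsr2 the 2 control points nearly coincide while the dark-reared points lie on either side of them.

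**Figure D2:**
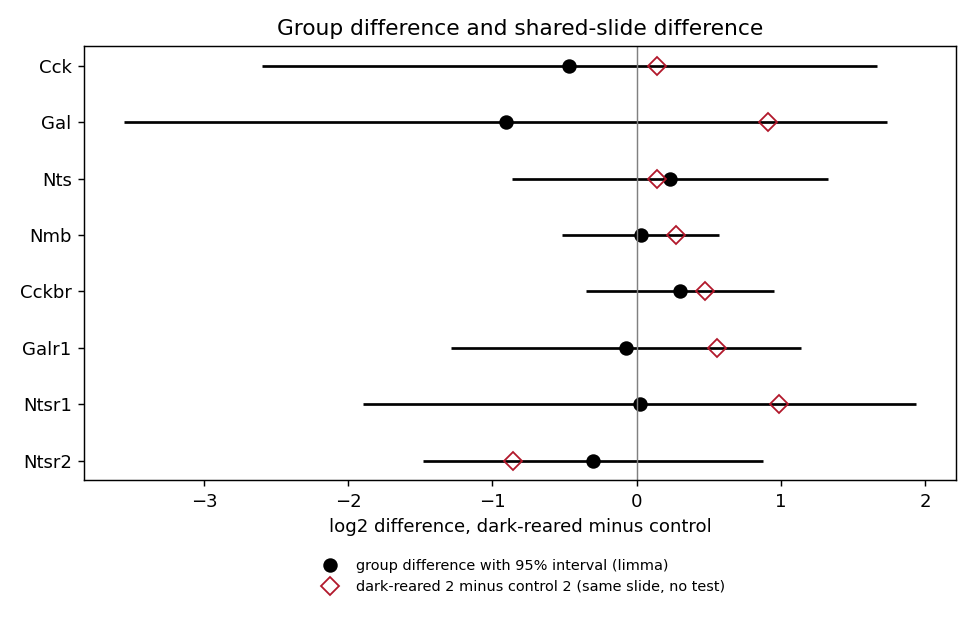
Log2 difference, dark-reared minus control, for each gene (filled points, with the 95% interval from limma as lines) and the difference between dark-reared 2 and control 2 on their shared slide (open diamonds, no test). All 8 intervals include 0, and for Cck, Gal and Galr1 the diamond lies on the other side of 0 from the group difference.

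Cck, the cholecystokinin precursor gene, was highest in 1 control. The processed signal of its probe was 17526 in dark-reared 1 and 10161 in dark-reared 2, against 36474 in control 1 and 9067 in control 2 (units of scanner intensity). Both dark-reared samples thus lay between the 2 controls, an arrangement seen in 16.2% of all genes and in Cck alone among the 8. On the log2 scale, relative to the 75th percentile of the array as for all log2 values below, Cck averaged 4.07 ± 0.53 in dark-reared samples and 4.54 ± 1.39 in controls (SD, n = 2 each). The difference was -0.47 with a limma 95% interval of -2.60 to 1.66. The controls differed from each other by 1.97 in log2, or 3.92-fold, a gap as large as or larger than that of 99.3% of all genes. Without control 1 the difference was 0.52, the opposite sign, and within the shared slide it was 0.14.

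Gal, the precursor of galanin, had the widest range of the 8 genes. Signals were 635 in dark-reared 1 and 2903 in dark-reared 2, against 4164 in control 1 and 1519 in control 2. Dark-reared 1 was the low sample, and dark-reared 2 lay between the controls. The brightest array, control 1, was 6.64-fold above the dimmest, dark-reared 1, a range at percentile 98.5 of all genes tested. Gal averaged 0.78 ± 1.57 in dark-reared samples and 1.68 ± 1.00 in controls (log2, SD, n = 2 each). The difference of -0.91 was within the spread between samples, with a 95% interval of -3.56 to 1.74 in limma. Without dark-reared 1 it was 0.20, and within the shared slide it was 0.91, both of the opposite sign.

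Nts, which encodes neurotensin and neuromedin N, varied less. Its processed signal was 2944 in dark-reared 1 and 4468 in dark-reared 2, against 2327 in control 1 and 4001 in control 2. The replicate 2 sample of each group was the higher one, so that Nts was the member in which control 1 was the lowest array. Nts averaged 2.19 ± 0.45 in dark-reared samples and 1.96 ± 0.58 in controls (log2, SD, n = 2 each), a difference of 0.23 with a 95% interval of -0.87 to 1.33. The difference was -0.09 without dark-reared 2 and -0.18 without control 1, and within the shared slide it was 0.14.

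Nmb, the neuromedin B precursor gene, was the steadiest of the 8. Its 4 signals were 835 in dark-reared 1 and 1053 in dark-reared 2, against 958 in control 1 and 860 in control 2. All 4 arrays lay within a 1.29-fold range, and both controls lay between the dark-reared values. Nmb averaged 0.24 ± 0.26 in dark-reared samples and 0.21 ± 0.08 in controls (log2, SD, n = 2 each). The difference of 0.03 had a 95% interval of -0.52 to 0.57, the narrowest of the 8, so that changes of up to about that size in either direction are within the interval. It was -0.16 without dark-reared 2 and -0.03 without control 2, and 0.27 within the shared slide.

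Among the receptors, Cckbr had its lowest value in control 2. Its brighter probe gave a processed signal of 1286 in dark-reared 1 and 1124 in dark-reared 2, against 1164 in control 1 and 798 in control 2. Only control 2 stood below the other arrays, and control 1 lay between the dark-reared samples. Cckbr averaged 0.60 ± 0.11 in dark-reared samples and 0.30 ± 0.36 in controls (log2, SD, n = 2 each), a difference of 0.30 with a 95% interval of -0.35 to 0.95. The difference was 0.05 without control 2 and 0.47 within the shared slide.

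The 2 probes of Cckbr did not agree in direction. The dimmer probe gave a processed signal of 24.0 in dark-reared 1 and 29.4 in dark-reared 2, against 34.1 in control 1 and 27.1 in control 2, and it was not well above background in control 2. Its log2 difference was -0.22, the opposite sign from the brighter probe, and the mean of both probes gave 0.04. The error that the scanner software gives for a spot was 16.0% to 28.0% of the signal for the dimmer probe, against about 10% for the brighter one.

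Galr1, the galanin receptor gene, was the dimmest member. Its processed signal was 36.0 in dark-reared 1 and 78.3 in dark-reared 2, against 58.1 in control 1 and 52.4 in control 2. The dark-reared samples lay on either side of the controls, 2.22-fold apart, whereas the controls were 1.08-fold apart. Galr1 averaged -3.90 ± 0.82 in dark-reared samples and -3.82 ± 0.08 in controls (log2, SD, n = 2 each). The difference was -0.08 with a 95% interval of -1.29 to 1.14. Without dark-reared 1 it was 0.50, and within the shared slide it was 0.56, both of the opposite sign. With normexp background correction it was -0.62, and -0.03 once outlying local backgrounds were replaced. The software error of a spot was 12.0% to 17.9% of the signal for this probe.

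Ntsr1, the high-affinity neurotensin receptor gene, had the same arrangement on a larger scale. Its processed signal was 198 in dark-reared 1 and 718 in dark-reared 2, against 378 in control 1 and 356 in control 2. The dark-reared samples were 3.71-fold apart, a gap at percentile 97.7 of all genes, while the controls were 1.03-fold apart, a gap at percentile 13.9. The group means were almost equal, at -1.07 ± 1.34 in dark-reared samples and -1.09 ± 0.04 in controls (log2, SD, n = 2 each). The difference was 0.02 with a 95% interval of -1.90 to 1.94. It was -0.93 without dark-reared 2 and -0.0046 without control 2, and 0.99 within the shared slide, and neither dark-reared sample was near the mean of its group.

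Ntsr2, the neurotensin receptor gene also found in astrocytes, ran the other way. Its brighter probe gave a processed signal of 19448 in dark-reared 1 and 8739 in dark-reared 2, against 16121 in control 1 and 15637 in control 2. Here dark-reared 1 was the highest and dark-reared 2 the lowest array. The dark-reared samples were 2.18-fold apart and the controls 1.01-fold apart. Ntsr2 averaged 4.04 ± 0.79 in dark-reared samples and 4.34 ± 0.01 in controls (log2, SD, n = 2 each), a difference of -0.30 with a 95% interval of -1.48 to 0.87. It was 0.26 without dark-reared 2, the opposite sign, and -0.86 within the shared slide.

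The second Ntsr2 probe gave the same order of arrays. It had a processed signal of 6673 in dark-reared 1 and 3291 in dark-reared 2, against 5661 in control 1 and 5440 in control 2. Its log2 difference was -0.26. Both probes thus placed dark-reared 2 low and the controls next to each other.

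**Figure D3:**
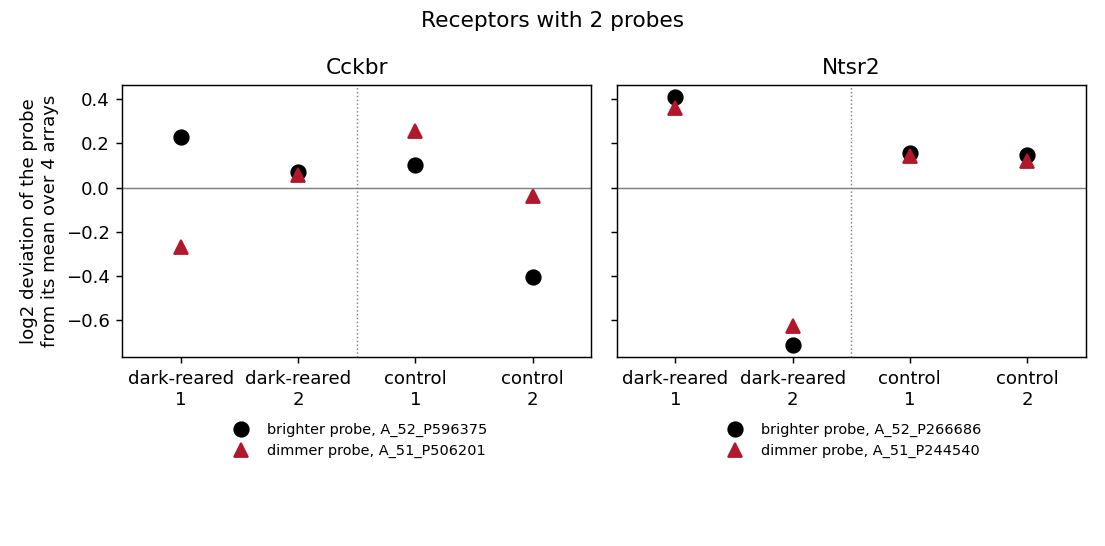
Log2 deviation of each probe from its own mean over the 4 arrays (vertical axis) for the receptors with 2 probes, with dark-reared arrays left of the dotted line and control arrays right of it. The Ntsr2 probes overlie each other with dark-reared 2 lowest, and the Cckbr probes part in dark-reared 1 and control 2.

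Both controls lay between the dark-reared values in 4 of the 8 genes (Nmb, Galr1, Ntsr1 and Ntsr2), beside 27.8% of all genes. In Nmb, Galr1 and Ntsr1 dark-reared 2 was highest and dark-reared 1 lowest, and Ntsr2 had the dark-reared arrays exchanged. Control 1 was above control 2 by only 1.09-fold (Nmb), 1.08-fold (Galr1), 1.03-fold (Ntsr1) and 1.01-fold (Ntsr2). These steps are no larger than the software error of a spot, so the order of the controls is not resolved. Of the 8 genes, 4 had their lowest value in dark-reared 1 (Gal, Nmb, Galr1 and Ntsr1), beside 28.0% of all genes. Another set of 4 had their highest value in dark-reared 2 (Nts, Nmb, Galr1 and Ntsr1), beside 28.6% of all genes. Ligand and receptor did not follow each other in every system. Nts was lowest in control 1, while Ntsr1 was lowest in dark-reared 1 and Ntsr2 in dark-reared 2. Control 1 had the highest Cck. Its brighter Cckbr probe was second, but by steps close to the software error of a spot. The dimmer Cckbr probe, with a larger software error, was highest in control 1. Whether Cckbr followed Cck in control 1 is thus not resolved. Dark-reared 1 was the lowest array for both Gal and Galr1. Dark-reared 2 was the highest for Galr1 and second to control 1 for Gal, and the order of the controls in Galr1 is not resolved.

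**Figure D4:**
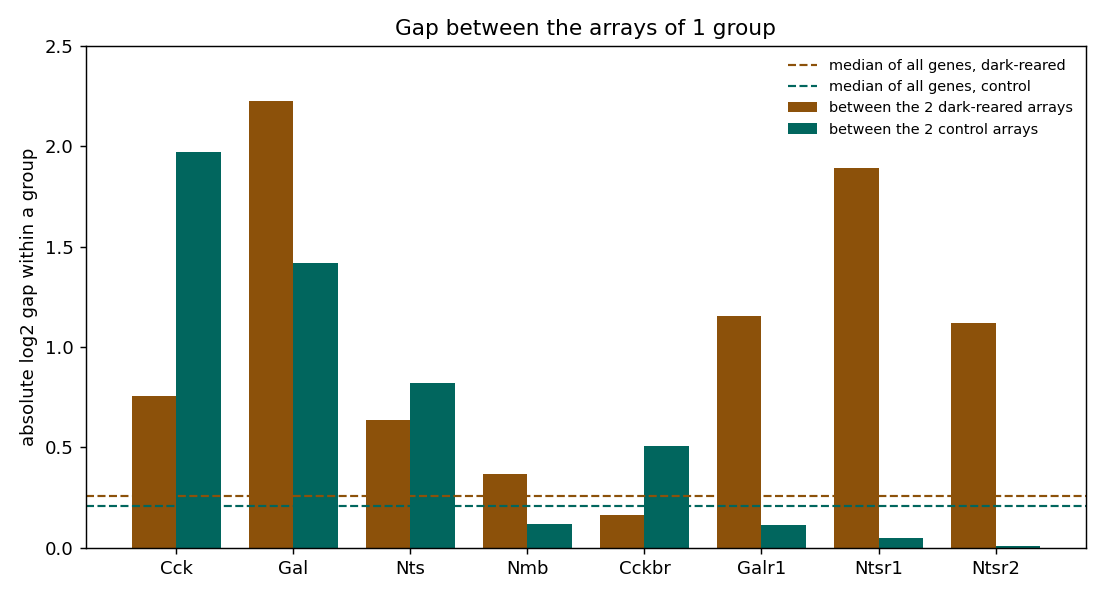
Absolute log2 gap between the 2 dark-reared arrays (left bar) and between the 2 control arrays (right bar) for each gene, with the medians over all genes (0.26 for dark-reared and 0.21 for control) as dashed lines. The gap is wide in dark-reared samples and narrow in controls for Galr1, Ntsr1 and Ntsr2, wide in both for Gal, and widest in controls for Cck.

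Markers of brain regions and cell types also differed between samples of 1 group. The mean log2 deviation of the 13 thalamus markers from their 4-array means was -0.94 in dark-reared 1 and 0.31 in dark-reared 2, against 0.95 in control 1 and -0.33 in control 2. This order of the list mean is the one in which Gal stood, with deviations of -1.57 and 0.66 in the dark-reared pair and 1.16 and -0.26 in the control pair. Summed over these markers, the signal was 16.0 and 33.1 in the dark-reared pair and 55.4 and 18.7 in the control pair (multiples of the 75th percentile). Of the 13 markers 6 were lowest in dark-reared 1 and 8 were highest in control 1. Only Tcf7l2 and Slc17a6 had the full order of Gal, and Lhx2 was highest in dark-reared 1. The 7 hypothalamus markers were mixed: 3 were lowest in dark-reared 1, 3 in dark-reared 2 (Irs4, Pomc and Sst) and Lhx6 in control 1. Their mean deviation was -0.55 in dark-reared 1, where Resp18 (-1.67) and Peg10 (-1.06) lay lowest, and 0.15 in dark-reared 2, and the control arrays had 0.06 (control 1) and 0.33 (control 2). Their summed signal was 24.8 and 30.0 in the dark-reared pair and 32.0 and 34.5 in the control pair. Sst, the brightest of the 7 on every array, weighs most in this sum. It stood at 4.39 and 4.26 (log2) in the dark-reared pair and at 4.37 and 4.74 in the control pair. The part of tissue content in the values of Gal and of the other genes lowest in dark-reared 1 was not tested, and in bulk tissue fewer cells of a type and less RNA per cell cannot be told apart.

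Ntsr2 is set here beside 5 astrocyte markers, which varied in different ways. Slc1a2, a glutamate transporter gene, was highest in dark-reared 1 and lowest in dark-reared 2, as Ntsr2 was, at deviations of 0.38 and -0.31 in the dark-reared pair and -0.18 and 0.11 in the control pair. Gfap, an intermediate filament gene, was highest in dark-reared 2, at -0.14 and 0.70 in the dark-reared pair and 0.10 and -0.66 in the control pair. Over the 5, the markers had mean deviations of -0.05 and 0.14 in the dark-reared pair and 0.03 and -0.12 in the control pair, while Ntsr2 had 0.41 and -0.71, against 0.16 and 0.15. The summed signal of the 5 markers was 84.5 and 67.0 in the dark-reared pair and 68.0 and 75.7 in the control pair. Slc1a2, the brightest of the 5 on every array, weighs most in this sum. It stood at 5.92 and 5.23 (log2) in the dark-reared pair and at 5.36 and 5.65 in the control pair. Of the 8 striatum markers 7 were lowest in dark-reared 2, as Ntsr2 was, the exception being Drd1, and so were all 5 oligodendrocyte markers. Mean deviations of the striatum list were 0.77 and -0.81 in the dark-reared pair and -0.52 and 0.57 in the control pair, and the summed signals were 164 and 45.2 against 56.4 and 127. Those of the oligodendrocyte list were 0.74 and -1.45 against 0.81 and -0.09, and the summed signals were 483 and 118 against 515 and 301. Their part in the Ntsr2 values was not tested. Each marker of the striatum, oligodendrocyte and astrocyte lists was well above background on all 4 arrays.

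The 13 cortex and hippocampus markers had mean deviations of 0.34 and 0.15 in the dark-reared pair and -0.02 and -0.47 in the control pair, and 5 of 13 lay without overlap above the controls in dark-reared samples, with 0 below (9.53% and 9.51% of all genes). Cckbr, whose brighter probe was lowest in control 2 as well, had 0.23 and 0.07 against 0.10 and -0.40. The summed signal of the list was 27.8 and 15.8 in the dark-reared pair and 14.2 and 21.7 in the control pair. Bcl11b, the brightest of the list on every array, weighs most in this sum. It stood at 3.91 and 2.56 (log2) in the dark-reared pair and at 2.24 and 3.74 in the control pair. Within the list 6 of the 13 were lowest in control 2 and 6 in control 1. Signal well above background was seen for 11 of its members on every array. The 5 choroid plexus and ependyma markers were all lowest in control 2, as was the brighter Cckbr probe. The dimmer Cckbr probe was lowest in dark-reared 1. Mean deviations of the 5 markers were 0.75 and 0.28 in the dark-reared pair and 0.66 and -1.69 in the control pair. Their summed signal was 15.6 and 10.9 in the dark-reared pair and 15.7 and 3.52 in the control pair, and each was well above background on all arrays. The part of either list in the Cckbr values was not tested. The mean deviation of the 5 neuron markers was -0.18 and 0.17 in the dark-reared pair and 0.11 and -0.09 in the control pair.

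**Figure D5:**
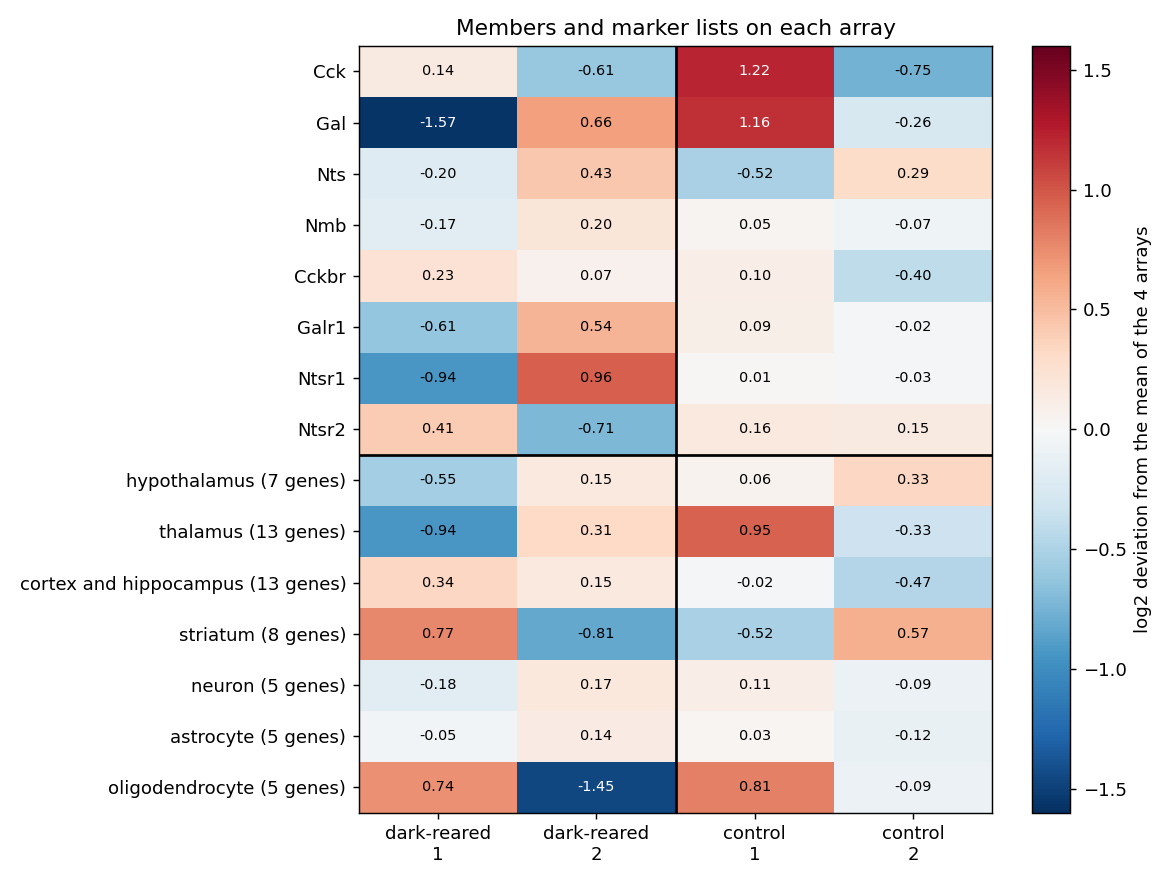
Log2 deviation from the mean of the 4 arrays for each of the 8 genes (above the line) and the mean deviation of the tested markers of each list (below the line), with dark-reared arrays left and control arrays right. Gal and the thalamus list are lowest in dark-reared 1 (-1.57 and -0.94) and high in control 1 (1.16 and 0.95), and Ntsr2 is low in dark-reared 2 (-0.71), as are the striatum (-0.81) and oligodendrocyte lists (-1.45).

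For each member, the genes with the most similar centred profile over the 4 arrays were sought among 13520 named genes well above background throughout. Likeness was the Euclidean distance between centred log2 values, and with 4 arrays it describes these samples alone. The profile of Gal was matched most closely by Agt, the angiotensinogen gene, at a distance of 0.10, and by Dlk1, an imprinted gene for a Notch-related membrane protein, at 0.19. In log2, Agt stood at 1.37 and 3.61 in the dark-reared pair and at 4.18 and 2.62 in the control pair. Within 0.5 of Gal lay 19 genes. Cck had 3 genes within that distance, the closest being Dapk2, a death-associated protein kinase gene, at 0.28 and the Wnt ligand gene Wnt3 at 0.31. Wnt3 stood at -1.09 and -1.51 in the dark-reared pair and at 0.19 and -1.57 in the control pair.

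Ntsr1 was nearest to Tmem200a (0.12) and Dzip1 (0.13), with 111 genes within 0.5. Ntsr2 was nearest to Gabra4, a GABA-A receptor subunit gene, at 0.06 and to Hlf, a PAR bZIP transcription factor gene, at 0.07, with 682 genes within 0.5. Gabra4 stood at 4.10 and 3.01 in the dark-reared pair and at 3.81 and 3.86 in the control pair. Galr1 was nearest to Galns, a lysosomal sulfatase gene, at 0.02 and to the imprinted adaptor gene Grb10 at 0.05, with 989 genes within 0.5. Nts (Uhrf1bp1 at 0.10, Mei1 at 0.15), Cckbr (Dctn6 and Tmem178, both at 0.06) and Nmb (Mdp1 at 0.0032, Spryd4 at 0.02) completed the set. Within 0.5 lay 386 genes for Nts, 3948 for Cckbr and 8613 for Nmb, which hardly varied. The neighbours of Cckbr and Nmb are thus not selective. As the distance is fixed, a profile with a wider range has fewer genes within it.

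Of 28 further genes that make, cut, bind or relay these peptides, 23 were tested, and none passed. With limma 0 of 23 had an adjusted p under 0.05 (0% of all genes) and 0 had an unadjusted p under 0.05 (1.26% of all genes). The means of 8 were higher and of 15 lower in dark-reared samples, with a median log2 difference of -0.04 beside -0.0060 over all genes. The groups did not overlap in 1 of the 23, Gnaq, beside 19.0% of all genes. Galr2 was well above background on 1 array, Galp and Nmbr on none, and Spx and Sorl1 had no named probe, so the receptor of neuromedin B gave no level to set beside Nmb.

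Among the other ligands and receptors, 1 of 5 tested was higher and 4 were lower in dark-reared samples. Cckar, the second cholecystokinin receptor gene, stood at -4.60 and -2.37 (log2) in the dark-reared pair and at -1.67 and -2.69 in the control pair. Dark-reared 1 was the low array, as for Gal, and the groups overlapped. The difference was -1.31 (SE 0.88) overall and 0.32, the opposite sign, within the shared slide. Grp, which encodes gastrin-releasing peptide, the other bombesin-like peptide, stood at -1.85 and -0.42 in the dark-reared pair and at -0.65 and -2.55 in the control pair, and differed by 0.47 (SE 0.86). Galr3, another galanin receptor gene, differed by -0.17.

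Of 6 genes for precursor processing 1 was higher and 5 were lower. The largest difference was in Pcsk1, a prohormone convertase gene, at -0.42 (SE 0.45), which stood at -2.26 and -1.21 in the dark-reared pair and at -1.01 and -1.64 in the control pair, a 2.38-fold range with the groups overlapping. Pcsk2, the other convertase, differed by -0.08, and Tpst1, a tyrosylprotein sulfotransferase gene of the kind that sulfates cholecystokinin, by -0.06. Of 6 peptidase genes 2 were higher and 4 lower. Tpp2, whose product can cleave cholecystokinin, differed by -0.18, Ece1, for endothelin-converting enzyme, by -0.05 and Nln, for the neurotensin-cleaving enzyme neurolysin, by 0.05. Of 6 genes for G proteins and their effector 4 were higher and 2 lower. Gnao1 differed by 0.25, Gnaq by 0.19 and Plcb1 by 0.18. Gnaq, the G protein subunit through which Cckbr and Ntsr1 signal, stood at 2.87 and 3.15 in the dark-reared pair and at 2.82 on both control arrays (SE of the difference 0.17).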

How the data were processed

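The deposited scanner files hold spot intensities of 1 array each, which the authors extracted with version 10.7.3.1 of Agilent's Feature Extraction software, per the file headers; the submitters' processing notes name version 10.7. The processed signal used here is background-subtracted and detrended, and flags (no unit, other) mark outlier, saturated and well-above-background spots, per the file headers. The authors' deposited log2 table, with a median of 6.84 on every array, served as an alternative. How it was normalized is not stated.

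From the intensities, outlier spots were dropped, spots of a probe averaged, and log2 taken relative to the 75th percentile of each array over non-control spots (802 and 784 in the dark-reared pair, 792 and 772 in the control pair). RefSeq accessions gave a symbol to 26918 of 41174 probes. A probe entered if both arrays of either group had it well above background, and the brightest such probe stood for a gene. Tests were two-sided, by lmFit and eBayes (limma 3.58.1, R 4.3.3), with Benjamini-Hochberg adjustment over 21424 genes at 0.05, and the code was tested on simulated data. P-values set a group difference against the spread between these samples, which eBayes moderates with that of all genes tested. All arrays were scanned on 1 day, on 3 slides. The members and gene lists were chosen with earlier results of these data known. Genes named are the members, the 3 largest absolute differences in each role of the wider list, and the 2 nearest profiles of each member. Alternatives were other scalings, normexp (offset 50, on median spot signals), filters, probe summaries, variance models, blocks and each array left out.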

Additional observations from a re-analysis of the deposited data

How the results depend on the processing

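No gene passed the adjusted threshold at any of the 16 alternative settings with a test, while 153 to 1328 had an unadjusted p under 0.05 (269 as reported). The count at least 2-fold apart without overlap was 256, and 153 with normexp, 23 with normexp after outlying local backgrounds were replaced (added after seeing the data), 808 without the filter, 78 with the filter on all 4 arrays and 898 to 1210 with 1 array left out, where a lone sample is assumed to vary like the other group. Normexp took a lowest background-subtracted signal of -15715.5 on control 2 and moved the median of all genes to -0.12. The median difference of the 8 members, -0.03, was 0.0030 with median scaling, 0.0124 with quantile normalization, 0.0101 with the deposited values, 0.37 within the shared slide, -0.13 with normexp, -0.15 with the other probes of Cckbr and Ntsr2 and -0.12 to 0.21 with 1 array left out. That of the wider list was 0.0369 with normexp. With 1 array left out, log2 differences ran from -1.45 to 0.52 for Cck, -2.02 to 0.20 for Gal, -0.18 to 0.64 for Nts, -0.16 to 0.21 for Nmb, 0.05 to 0.55 for Cckbr, -0.65 to 0.50 for Galr1, -0.93 to 0.97 for Ntsr1 and -0.86 to 0.26 for Ntsr2. Other reversals were Cck (0.14), Gal (0.91) and Galr1 (0.56) within the shared slide, Ntsr1 with normexp (-0.14), and Cckbr by its other probe (-0.22). Without a change of sign, normexp gave -0.62 for Galr1, -0.24 for Cck, 0.42 for Nts, 0.0163 for Nmb and -0.12 for Ntsr2, and the mean of both probes gave 0.04 for Cckbr. After outlying local backgrounds were replaced, normexp gave -0.03 for Galr1, 0.07 for Ntsr1, -0.39 for Cck and 0.29 for Nts. It gave 0.0244 for Nmb, -0.28 for Ntsr2 and -0.0137 for the median of all genes. Each of these values is nearer to the one reported than with normexp alone, while Cckbr hardly moved (0.31 and 0.29). The cause of the shifts was not tested further. Apart from this, low signal over background limits Galr1 and the dimmer Cckbr probe. With the replicate number as a block 0 genes passed (272 at an unadjusted p under 0.05), and with the control numbers crossed, added because same-numbered deviations correlated at -0.16, 0 (433); the block changed no other call.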
